A study of Rattus norvegicus with 8 samples.

Results

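The myelin structural protein genes described here are Mbp, Mog, Mag, Mobp, Cnp, Cldn11, Mal, Pllp, Tspan2 and Omg, chosen by name as genes whose products build or line the myelin sheath. They are 10 of the 13810 genes that a probe set named by a single gene measured in the series, and each had at least 1 such probe set. Together they had 17 probe sets, of which 15 for 9 genes lay on the array type called chip A and 2, for Mbp and Omg, on chip B. The cells were rat brain cells taken at postnatal day 7 and sorted by flow cytometry as A2B5/OTMP+, which the labels call oligodendrocytes and the series title perineuronal ones. There were 4 biological replicates, each read on both Affymetrix array types (8 arrays), with no second cell population, treatment or control group. Strain, animals per replicate and the meaning of OTMP are absent from the labels, so p-values measure only the spread between these replicates.

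Each deposited value divides the signal of a probe set by that of a reference, which the labels leave unnamed. A ratio of 1, or a log2 ratio of 0, is the level of that reference. It shows neither how bright a gene was nor whether it was expressed, and it gives no ranking of genes by expression. How the reference was formed was not tested, and pairs of arrays that average 1 are described here. On chip A, some pair of arrays averaged 1 (within 0.0005) in 5.43% of all probe sets, against 1.63% averaging 0.98 and 1.16% averaging 1.02, as a median over a set of arrays that held these would give. Chip B had no such excess (2.18% at 1, 2.69% at 0.98), but there 23% of probe sets had an array at exactly 1, against 0.914% on chip A. Among the 15 member probe sets of chip A, 3 had such a pair: Mbp 1368810_a_at with ratios of 0.947 and 1.053 in replicates 2 and 3, Mog with 0.996 and 1.004 in replicates 3 and 4, and Tspan2 1368105_at with 1.155 and 0.844 in replicates 1 and 2. The same count was 0 at 0.98 and 1 at 1.02. For a single probe set, such a pair cannot be told from a coincidence. Where the reference was such a median, these very arrays took part in setting the level of 1.

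Myelin is the stack of membrane that an oligodendrocyte wraps around an axon. Its compaction needs myelin basic protein on the inner faces of the membrane. The sheath also holds tetraspan proteins within the membrane, a claudin that seals the layers, and adhesion proteins that face the axon or the outside. These genes are known to rise steeply when a precursor turns into a myelinating cell, which in the rat brain takes place over the first postnatal weeks.

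Most member probe sets lay close to the reference. On chip A, 11 of the 15 had a mean log2 ratio within 0.25 of 0, where 45.9% of all chip A probe sets did. By limma, 2 of 15 had a lower ratio than 1, one each of Cldn11 and Mal, and 0 had a higher one. Over all 15866 chip A probe sets tested 30.1% were lower and 9.21% higher. At an unadjusted limma p under 0.05 there were 4 of 15, the others being Mag and Pllp. Over all of chip A at least 6230 of 15866 probe sets met that limit, the number called after adjustment. On chip B 0 of 2 passed in either direction (limma, 0 at an unadjusted p under 0.05), with 27.1% lower and 5.08% higher among all 15276 tested. The median of the member means was 0.05 on chip A, against -0.11 for all probe sets of that type. Errors below are SDs over the 4 arrays (n = 4), intervals are limma's 95% intervals, and adjusted p-values are limma's with Benjamini-Hochberg adjustment over all probe sets of an array type.

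**Figure D1:**
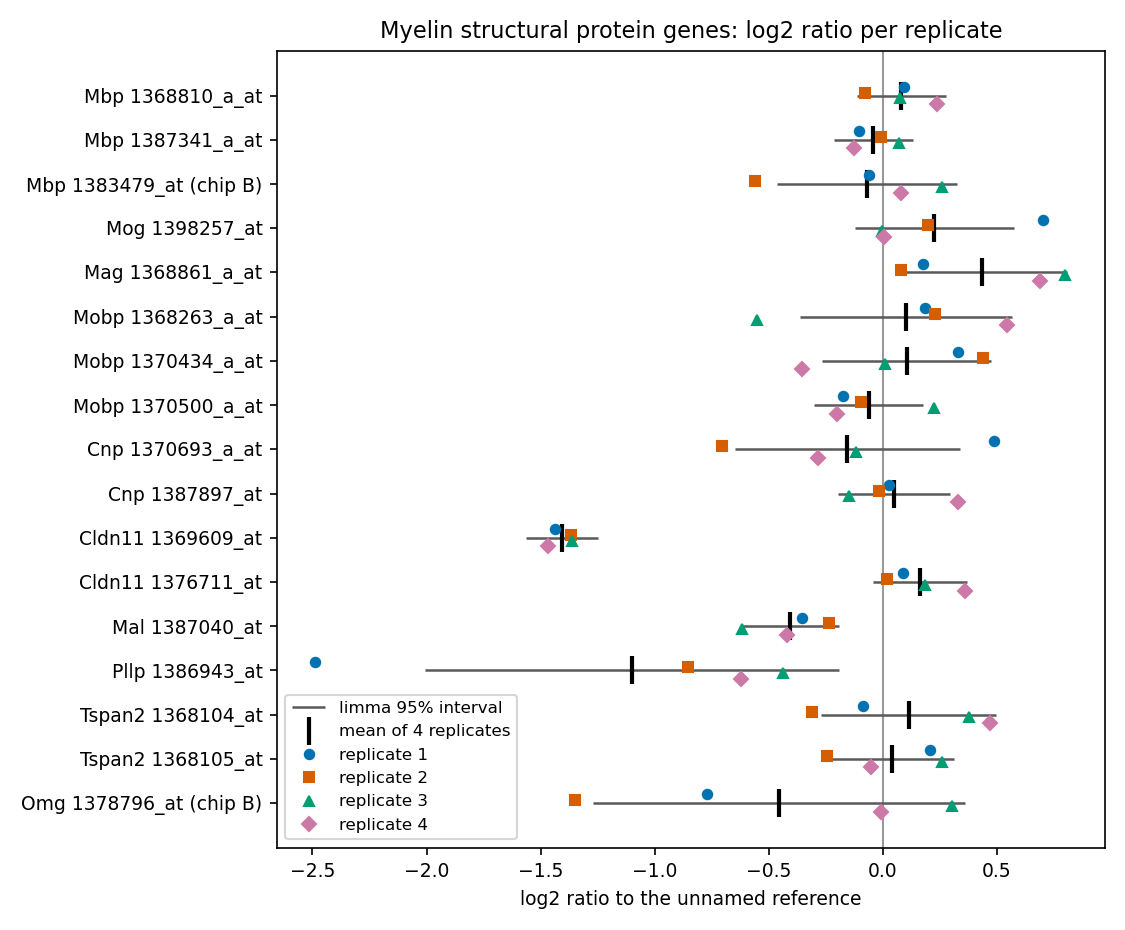
Log2 ratio to the unnamed reference (horizontal axis) for each of the 17 member probe sets (vertical axis), with 1 symbol per replicate, the mean of the 4 replicates as a black bar and limma's 95% interval as a grey line. Most lie around 0, while Cldn11 1369609_at, Mal and Pllp lie below 0 in all 4 replicates and Pllp in replicate 1 reaches -2.49.

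Mbp, which encodes myelin basic protein, the cytoplasmic glue of compact myelin, was measured by 3 probe sets that all lay near 1. The ratios of 1368810_a_at were 1.067, 0.947, 1.053 and 1.178 in replicates 1 to 4 in order. Those of 1387341_a_at were 0.931, 0.994, 1.049 and 0.917. On chip B, 1383479_at gave 0.96, 0.679, 1.196 and 1.057. Replicate 2 was the lowest for the first and the third of these and the second highest for the other, so the probe sets did not share an order of replicates.
The mean log2 ratios were 0.08 ± 0.13 (adjusted p = 0.455), -0.04 ± 0.09 (0.668) and -0.07 ± 0.35 (0.739) by limma. The intervals ran from -0.11 to 0.27, from -0.21 to 0.13 and from -0.46 to 0.32, so a change beyond these bounds in either direction is not covered by them. The suffix _a_at marks a probe set that Affymetrix designed to match alternative transcripts of a gene, and the Mbp isoforms cannot be told apart here.

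Mobp, the gene of an abundant small basic protein of central myelin, had 3 chip A probe sets whose replicates moved in different orders. For 1368263_a_at the ratios were 1.137, 1.17, 0.683 and 1.456 in replicates 1 to 4. For 1370434_a_at they were 1.256, 1.355, 1.005 and 0.781. For 1370500_a_at they were 0.885, 0.936, 1.168 and 0.869. Replicate 4 was thus the highest array for the first probe set and the lowest for the other two, and replicate 3 the lowest for the first and the highest for the third.
The mean log2 ratios were 0.10 ± 0.46, 0.10 ± 0.36 and -0.06 ± 0.20, with limma adjusted p of 0.703, 0.619 and 0.645. The first 2 differed by 0.90 (log2) in replicate 4 and by -0.56 in replicate 3, although their means were alike. These sets also target alternative transcripts, so the values give no single Mobp level per replicate.

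Cnp encodes the phosphodiesterase of non-compact myelin, which keeps cytoplasmic channels open. Its probe set 1370693_a_at had ratios of 1.401, 0.614, 0.921 and 0.82, and 1387897_at had 1.018, 0.989, 0.901 and 1.258. The former put replicate 1 above the reference and the others below it, while the latter was highest in replicate 4. The mean log2 ratios were -0.16 ± 0.49 (limma adjusted p = 0.576) and 0.05 ± 0.20 (0.735).

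Cldn11 encodes claudin-11, which forms the tight junctions between layers of central myelin, and its probe sets parted. The ratios of 1369609_at were 0.369, 0.388, 0.389 and 0.362, while those of 1376711_at were 1.062, 1.013, 1.138 and 1.285. Every replicate lay well under 1 by the first and above 1 by the second, with no overlap. The mean log2 ratio was -1.41 ± 0.05 for the first (limma adjusted p = 0.000102) and 0.16 ± 0.15 for the second (0.177). With the arrays centred on their medians the second passed as higher (0.28, limma adjusted p = 0.0492).
Within a replicate the first lay below the second by 1.38 to 1.83 on the log2 scale, 1.57 ± 0.19 on average, or 2.97-fold. The annotation ties the first to the RefSeq mRNA of Cldn11 and the second to another sequence record, and the files do not say which part of the transcript each reads. On chip A 288 probe sets had a mean as low as that of 1369609_at or lower, itself included, and in 92 of them the SD was also as small or smaller. With looser limits, a mean log2 ratio below -1 and an SD under 0.1, there were 809, or 5.1% of all chip A probe sets tested. These limits held 3 of the 57 control probe sets on chip A, each for a bacterial thr transcript, with the lowest mean at -1.34, above that of 1369609_at. The other probe sets for thr had means from -0.17 to -0.06. Low, even ratios thus also occurred among bacterial controls, and whether that of 1369609_at reflects less transcript was not tested.

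**Figure D2:**
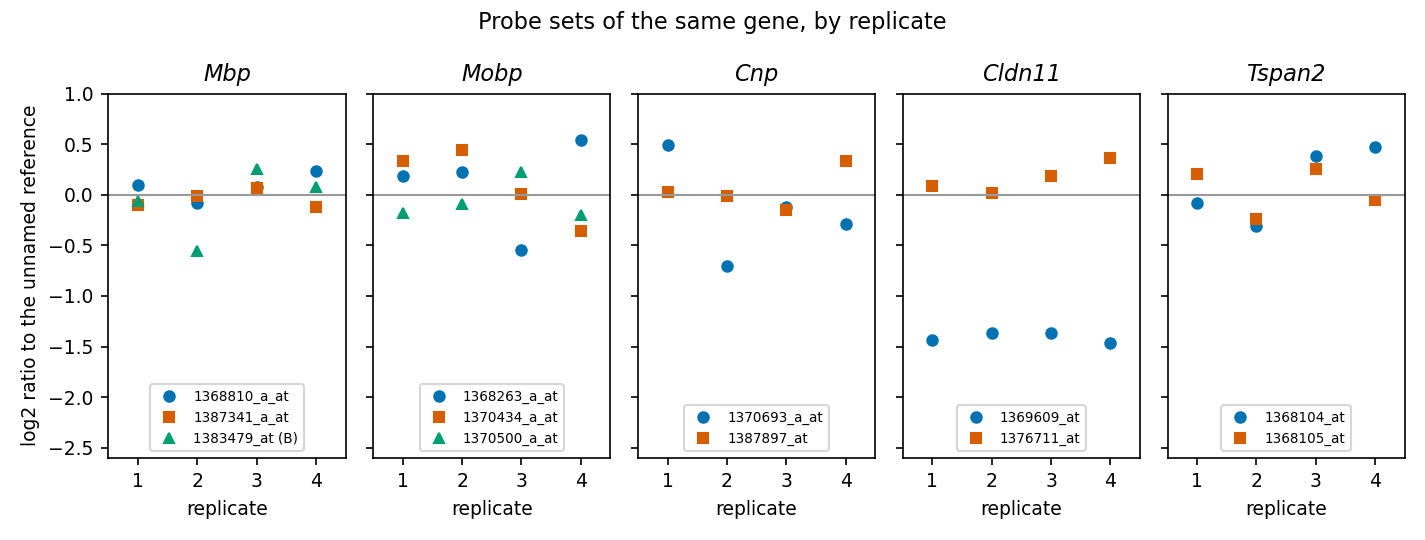
Log2 ratio to the unnamed reference (vertical axis) in replicates 1 to 4 (horizontal axis) for the 5 member genes with more than 1 probe set, with a symbol for each probe set and (B) for chip B. The Cldn11 probe sets are separated in every replicate by 1.38 to 1.83, while those of Mbp, Mobp, Cnp and Tspan2 cross.

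Mal and Pllp encode proteins of one small family of four-pass membrane proteins, MAL and plasmolipin, which gather lipid into membrane bound for myelin. Both lay under the reference in all 4 replicates. The Mal ratios were 0.783, 0.848, 0.652 and 0.747, a narrow band. The Pllp ratios were 0.178, 0.554, 0.739 and 0.65, with replicate 1 far under the other three.
The mean log2 ratio of Mal was -0.41 ± 0.16 (limma adjusted p = 0.0145; interval -0.62 to -0.19). That of Pllp was -1.10 ± 0.94 (0.0623; interval -2.01 to -0.19), which did not pass. Its spread was at percentile 99.3 of all chip A probe sets and its mean at percentile 4.80. Without replicate 1 the mean was -0.64 and passed (limma adjusted p = 0.0162). The call of Mal was lost when the arrays were centred on their medians (-0.29, limma adjusted p = 0.0554) and without replicate 4 (-0.40, 0.0557). Centring adds 0.12 on average on chip A, and with 30.1% of all probe sets lower, a lower ratio of this size is not particular to Mal.

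The promoters of the genes that had a probe set below a ratio of 1 in every replicate are shown here as the sequence context of these members, from RefSeq on build GRCr8, from 250 bases before to 50 after the annotated start, 5′ to 3′ on the gene's strand. Windows on this build were found for 9 of the 10 members. Capitals mark matches, on either strand, to the GC box GGGCGG, the SOX core ACAAAG or the TATA box TATAAA.
The Cldn11 window lies on the minus strand at chr2:114149490-114149789, the Mal window on the minus strand at chr3:135341374-135341673 and the Pllp window on the plus strand at chr19:10320830-10321129.
Cldn11 promoter: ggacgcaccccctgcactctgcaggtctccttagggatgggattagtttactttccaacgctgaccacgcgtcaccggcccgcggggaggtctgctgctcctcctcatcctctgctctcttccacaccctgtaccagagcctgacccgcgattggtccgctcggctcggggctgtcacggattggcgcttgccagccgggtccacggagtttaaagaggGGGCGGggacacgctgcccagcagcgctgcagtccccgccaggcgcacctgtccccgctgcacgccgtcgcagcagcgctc
Mal promoter: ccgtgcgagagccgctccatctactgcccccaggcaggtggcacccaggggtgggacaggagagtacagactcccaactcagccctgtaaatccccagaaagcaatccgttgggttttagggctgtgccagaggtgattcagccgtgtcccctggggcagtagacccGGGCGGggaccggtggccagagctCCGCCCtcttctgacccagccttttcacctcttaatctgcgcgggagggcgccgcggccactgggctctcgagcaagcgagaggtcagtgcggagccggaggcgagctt
Pllp promoter: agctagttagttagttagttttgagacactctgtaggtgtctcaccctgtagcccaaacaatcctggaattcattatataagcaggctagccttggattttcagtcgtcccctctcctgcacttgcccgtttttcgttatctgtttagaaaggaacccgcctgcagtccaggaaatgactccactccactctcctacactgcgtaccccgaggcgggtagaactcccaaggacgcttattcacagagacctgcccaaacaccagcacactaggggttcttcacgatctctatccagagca
The Cldn11 window held 1 GC box, that of Mal 2 and that of Pllp 0, and 33.1% of all 33469 RefSeq windows of this length held at least 1. The Pllp window was 49.7% G and C, against 67% for Cldn11 and 65% for Mal. The SOX core and the TATA box had 0 matches in these windows. The SOX core, the core of the site that SOX10 and its relatives bind, matched in the windows of Cnp, Mag, Mbp and Mobp, 4 of the 9 genes, and in 18.8% of all windows. A TATA box was in 0 of the 10 member windows (Mbp has a pair of annotated starts) and in 14.2% of all. The motifs do not overlap one another. A match is a stretch of letters and no evidence of binding.

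Mag and Mog, whose products are adhesion proteins of the sheath's inner and outer surface, had the highest mean ratios among the members, and neither passed. Mag encodes myelin-associated glycoprotein, which sits on the membrane next to the axon. Its ratios were 1.128, 1.056, 1.737 and 1.61, above 1 in all 4 replicates and higher in replicates 3 and 4 than in 1 and 2. The mean log2 ratio was 0.43 ± 0.36 (limma adjusted p = 0.0702; interval 0.06 to 0.81), at percentile 90.3 of all chip A probe sets. It passed when the arrays were centred on their medians (0.55, limma adjusted p = 0.0466; 11.8% of all chip A probe sets were then higher and 23.3% lower) and without replicate 2 (0.55, 0.0457). The markers of oligodendrocyte precursors, the cells that come before, had chip A medians of 0.37, 0.05, 0.89 and 0.73 (log2 ratio) in replicates 1 to 4, also higher in replicates 3 and 4. Not all of them went that way, since both Ptprz1 probe sets were highest in replicate 1 and Cspg5 was lowest in replicate 4. Their part in the Mag values was not tested.

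Mog, whose product lies on the outermost lamella of central myelin, had ratios of 1.626, 1.147, 0.996 and 1.004. Replicate 1 stood highest, and replicates 3 and 4 lay at the reference, the reverse of Mag. The mean log2 ratio was 0.22 ± 0.33 (limma adjusted p = 0.259; interval -0.12 to 0.57).

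Omg encodes oligodendrocyte myelin glycoprotein, which like Mag binds the Nogo receptor on axons. Its only probe set, on chip B, had ratios of 0.586, 0.392, 1.234 and 0.994. Replicates 1 and 2 lay below the reference and replicates 3 and 4 near or above it, a range of 3.15-fold. The mean log2 ratio was -0.46 ± 0.75 (limma adjusted p = 0.326), with a spread at percentile 96.8 of all chip B probe sets. Its interval, from -1.27 to 0.36, covers both a clear fall and no change.

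Tspan2, a tetraspanin gene of the oligodendrocyte lineage, had a pair of chip A probe sets that were both lowest in replicate 2. The ratios of 1368104_at were 0.942, 0.807, 1.3 and 1.383, and those of 1368105_at were 1.155, 0.844, 1.196 and 0.964. The mean log2 ratios were 0.11 ± 0.37 (limma adjusted p = 0.603) and 0.04 ± 0.23 (0.787). Replicates 1 and 4 changed sides of 1 between the probe sets.

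**Figure D3:**
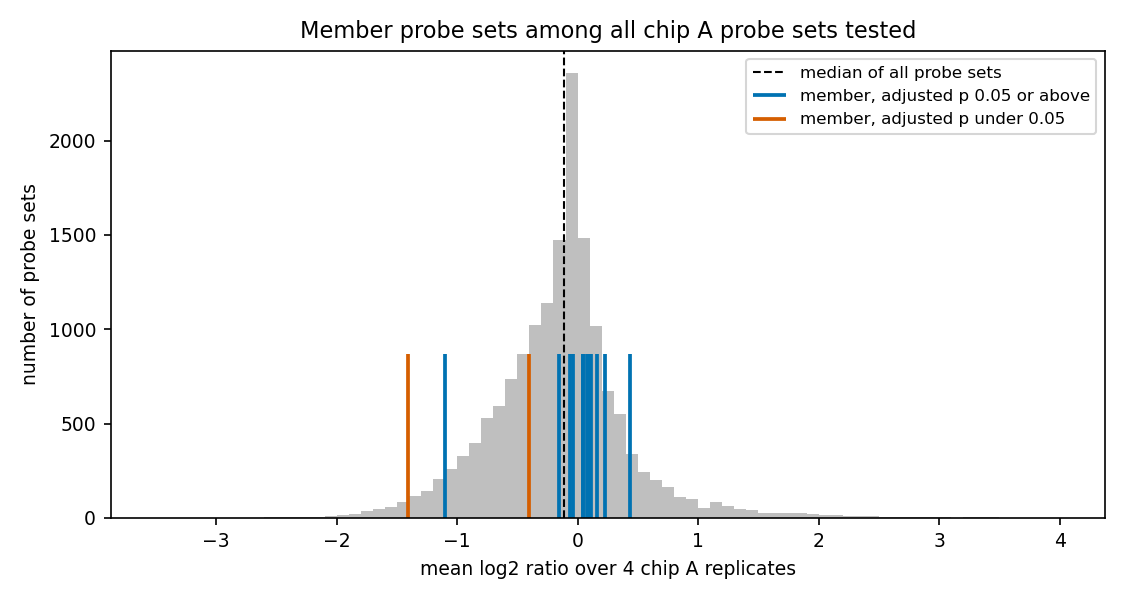
Number of chip A probe sets (vertical axis) by mean log2 ratio over 4 replicates (horizontal axis), in bins of 0.1, with the 15 member probe sets as coloured lines whose height carries no value. Most member lines stand just right of the median of all probe sets at -0.11, and the leftmost, at -1.41 and -1.10, are Cldn11 1369609_at and Pllp.

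By replicate, no array was uniformly high or low for the members. On chip A replicate 2 was the lowest array for 6 of the 15 probe sets, replicates 3 and 4 for 4 each and replicate 1 for 1. Replicate 3 was the highest for 6, replicate 4 for 5, and replicates 1 and 2 for 2 each. Both chip B probe sets were lowest in replicate 2 and highest in replicate 3. The median log2 ratio of the 15 chip A probe sets was 0.09, -0.08, 0.01 and -0.05 in replicates 1 to 4, against -0.15, -0.10, -0.08 and -0.14 for all probe sets. The median SD of the members was 0.23 on chip A, near the 0.21 of all probe sets. Arrays with the same replicate number went together across types. Over 100 rat probe sets present on both, the deviations of an array from its type's mean correlated at 0.736 to 0.823 with the same number. With other numbers the values were -0.500 to -0.013 (a description across probe sets, which are not replicates). The deviations of a probe set sum to 0 over the 4 arrays of a type, so the same-number values draw the others below 0.

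In the wider list of myelin sheath and mature oligodendrocyte genes the calls were all lower, except that Cd81 was higher with centred arrays (0.19, limma adjusted p = 0.0333). Of 33 genes measured by 41 probe sets, 11 had a probe set below a ratio of 1 by limma and 0 had one above (22 passed in neither direction), and 31.7% of probe sets were lower. The median of the means was -0.25. The lowest were Aspa, the aspartoacylase gene, at -1.48 ± 0.29 (limma adjusted p = 0.000547), Gjb1, a connexin gene of myelinating glia, at -1.39 ± 0.08 (0.000117) and Evi2a at -1.37 ± 0.60 (0.00739). Opalin, a late oligodendrocyte membrane protein gene, stood at -1.18 ± 0.05 on chip B (limma adjusted p = 8.69e-05) with ratios from 0.429 to 0.455. The lower share, 31.7%, was near the 30.1% and 27.1% of all probe sets. Gjb1 and Opalin, like Cldn11 1369609_at, had low ratios with little spread. This is not particular to them, since 809 of the 1018 chip A probe sets with a mean below -1 had an SD under 0.1.

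Other lists hold genes that act with single members. Counts by gene here take only the probe sets that passed, and further probe sets of a counted gene may not have passed. Of the genes that carry or regulate Mbp RNA, 5 of 9 passed only as lower, 0 only as higher and 1 both ways. By probe set 10 of 19 were lower (52.6%, against 30.1% and 27.1% of all on chips A and B). With centred arrays 6 of the 19, taken over both array types, were lower. Among all chip A probe sets 23.3% then were, and on chip B 4482 of 15276 were called, 867 of them higher. Several of the lower probe sets belong to the same genes, Syncrip and Hnrnpa2b1, so they do not count separate genes. The list held Kif1b, a kinesin gene, at -1.39 ± 0.10 (limma adjusted p = 0.000123) and Hnrnpa2b1, whose protein binds the transport signal of Mbp RNA, the gene called both ways, at 0.55 ± 0.18 (0.00600) by 1373540_at, -0.54 ± 0.25 (0.0139) by 1398883_at and -0.37 ± 0.21 (0.0421) by 1378543_at. Among probe sets of the Nogo receptor genes and partners, through which Mag and Omg act on axons, 37.5% were lower and 12.5% higher. By gene 2 of 8 passed only as lower, 0 only as higher and 2 both ways. Lingo1, a co-receptor gene, was one of these, with 0.67 ± 0.39 on chip A (limma adjusted p = 0.0237) and -0.70 ± 0.07 on chip B (0.000472). The receptor gene Rtn4r stood at -0.97 ± 0.07 by 1373008_x_at (limma adjusted p = 0.000251), while its other probe sets lay at -0.06 ± 0.05 (0.464) and -0.02 ± 0.09 (0.818) and did not pass. Among axon-glia junction genes 5 of 12 passed only as lower, 2 only as higher and 1 both ways. By probe set 25% were lower and 12.5% higher, against 9.21% and 5.08% higher among all on chips A and B. Cadm4, the adhesion partner of myelinating glia, stood at -1.59 ± 0.03 (limma adjusted p = 5.93e-05). Kcna2 1379092_at stood at 1.55 ± 0.46 (0.00382) and Cntnap2 1390393_at at 1.27 ± 0.78 (0.0224). The other probe sets of Kcna2, at 0.11 ± 0.33 (0.590), and Cntnap2, at -0.06 ± 0.06 (0.361), did not pass. Of peripheral myelin genes 3 of 6 had lower probe sets and 0 higher. By probe set 4 of 8 were lower (50%, against 30.1% and 27.1% of all on chips A and B). Egr2 1398266_a_at stood at -0.91 ± 0.10 (limma adjusted p = 0.000370) and Pmp2 at -0.22 ± 0.10 (0.0389). The Pmp22 probe sets, at -0.12 ± 0.27 (0.485) and -0.79 ± 1.08 (0.191), did not pass.

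**Figure D4:**
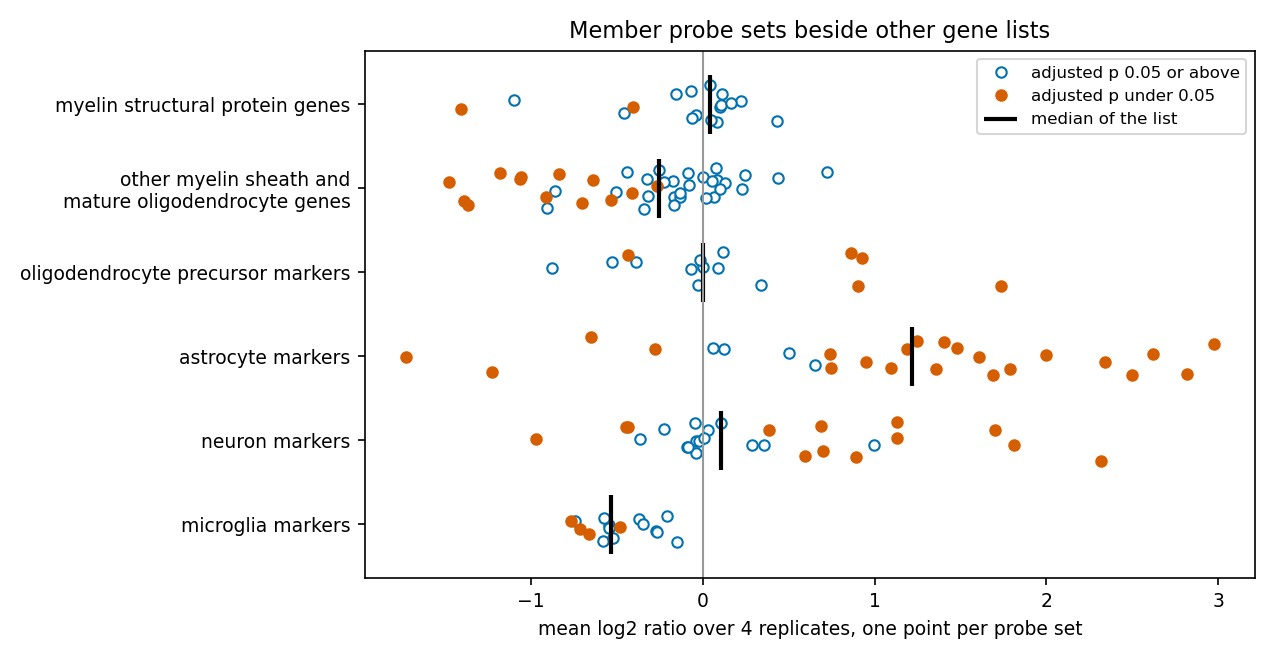
Mean log2 ratio over 4 replicates (horizontal axis), 1 point per probe set, for the members and 5 other gene lists (vertical axis, with points spread vertically for sight), filled where the limma adjusted p was under 0.05 and with the median of each list as a black bar. The members gather near 0 with a median of 0.05, the astrocyte list has a median of 1.22 and the microglia list one of -0.53.

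Markers of other cells are given beside the members. Of 16 astrocyte genes 11 passed only as higher, 1 only as lower and 3 both ways, counting a gene by its probe sets that passed. By probe set 69.2% were higher and 15.4% lower, against 9.21% and 5.08% higher among all on chips A and B. The median was 1.22, and on chip A it ran from 0.99 in replicate 2 to 1.41 in replicate 3. Of 17 neuron genes 6 passed only as higher, 1 only as lower and 2 both ways, with a chip A median from 0.17 to 0.47 across replicates. Among their probe sets 37% were higher and 11.1% lower. Of 12 microglia genes 4 passed only as lower and 0 as higher (chip A median from -0.86 to -0.02). By probe set 25% were lower, against 30.1% and 27.1% of all on chips A and B, and with centred arrays 0 were lower. Of 11 endothelial and mural genes 1 was higher and 1 lower, the latter not with centred arrays, and of 4 erythroid genes 1 was lower and 0 higher. The shares were 6.25% of probe sets in each direction for the former list and 20% lower for the latter. Of 11 precursor markers 3 passed only as higher, Cspg5, Pdgfra and Ptprz1, and 1, Olig2, only as lower. Olig2 passed by 1379593_at, while its other probe set, 1398212_at, lay at -0.03 ± 0.03 (limma adjusted p = 0.608). The lineage factor Sox10 stood at 0.00 ± 1.15. In this list 26.7% of probe sets were higher and 6.67% lower. In these bulk samples fewer cells of a type and less RNA per cell cannot be told apart, and the part of other cells in the member ratios was not tested. With the cells behind the reference unknown, a ratio near 1 for the myelin genes is no check of the cell label.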

How the data were processed

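Total RNA went through a Qiagen column kit and Affymetrix's biotin labelling for small samples, per the labels' protocols. The submitters' processing notes name RMA, a method of background correction, normalization and probe set summary, and give no version. What the authors deposited are linear ratios to a reference (chip A, 0.01 to 30.21; chip B, 0.0329 to 34.26). No label says how the ratio was formed, and brightness and detection calls were not used here. The number of arrays limits the precision.

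Ratios were put on the log2 scale without centring, and 57 control probe sets per type were left out. Each type was fitted with limma 3.58.1 (R 4.3.3; an intercept, eBayes, two-sided, Benjamini-Hochberg over 15866 or 15276 probe sets, threshold 0.05). The prior degrees of freedom were 2.31 and 1.52. The fit was tested on simulated data. Median ratios per array ran from 0.903 to 0.946 and from 0.888 to 0.967, and replicate arrays correlated at 0.716 to 0.792 and 0.710 to 0.786. Genes were named from the platform annotation, where 12783 and 7564 probe sets had 1 symbol, 312 and 100 several (none named) and 2771 and 7612 none.

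Every member probe set is reported. Up to 6 probe sets of each other list could be named, those past the test with the largest absolute mean first, and markers of other cells beside a result. Probe sets beyond these were named where they limit a result. Control probe sets named here were chosen after their values were seen. The members and lists were chosen with earlier results of these data known. Alternatives were centring on array medians, a trended robust prior, a pseudocount of 0.1, single-gene probe sets only, a mean over the probe sets of a gene, and leaving out each replicate.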

Additional observations from a re-analysis of the deposited data

Results flagged for a closer look

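The gap between 1 replicate and the others was large for its group of 4 in 1 of the 73 probe sets looked at, where chance gives about 1 in 20. Olig2 1379593_at on chip B had a log2 ratio of -0.608 (a ratio of 0.656) in replicate 1, against ratios of 0.759 to 0.782 in the others. None of the 17 member probe sets was picked out this way.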

How the results depend on the processing

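The chip A count of 2 member probe sets past limma's threshold was 1 without replicate 4 and ran from 1 to 3 as each replicate was left out. A trended robust prior gave 3, since Pllp passed (-1.10, limma adjusted p = 0.0468), and 3 with centred arrays, where Cldn11 1369609_at stayed lower, Mag (0.55) and Cldn11 1376711_at (0.28, limma adjusted p = 0.0492) were higher, and Mal did not pass. The chip B count was 0 under every setting run for that type. Centring moved the share of higher among all chip A calls from 23.5% to 33.7%. The pseudocount and the restriction to single-gene probe sets changed no member's direction or side of the threshold.

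Means near 0 changed sign. With centred arrays Mbp 1387341_a_at was at 0.076, Mbp 1383479_at at 0.034 and Mobp 1370500_a_at at 0.056. As each replicate was left out, Mbp 1383479_at ran from -0.18 to 0.093, Mobp 1368263_a_at from -0.046 to 0.32, Mobp 1370434_a_at from -0.0069 to 0.26, Cnp 1370693_a_at from -0.37 to 0.027, Cnp 1387897_at from -0.047 to 0.11, Tspan2 1368104_at from -0.0057 to 0.25 and Tspan2 1368105_at from -0.030 to 0.14. Of these none passed the threshold. With the mean over the probe sets of a gene Mbp was at -0.010, Mobp at 0.048, Cnp at -0.054 and Cldn11 at -0.62 (limma adjusted p = 0.000877), so Cldn11 1376711_at changed sign there by being averaged with 1369609_at. For the other sign changes the cause was not tested. No paired analysis was possible because the only groups that share replicate numbers are the array types, and no test contrasted one type with the other.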
